A study of Homo sapiens with 12 samples.

Results

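A 10-fold step in the dose of surfactant-coated silver nanoparticles was followed in differentiated Caco-2 cells, by setting 3 arrays of cells given 25 µg/mL against 3 arrays of cells given 2.5 µg/mL. These are 6 of the 12 arrays of the series, and no array of cells in medium alone or of cells given silver nitrate (0.5 µg/mL) entered the comparison, the other groups also having 3 arrays each. Members were all 19775 genes with a value, each represented by the probe set that carried exactly 1 gene symbol and had the highest mean over the 12 arrays. Caco-2 is an established line from a human colon carcinoma whose confluent cells come to resemble absorptive cells of the small intestine. All groups shared passage 22, growth in DMEM with 10% fetal calf serum, 21 days after confluence, and 24 h of exposure in 20 mL of DMEM with 1% insulin, transferrin and selenium and 1% penicillin and streptomycin. The particles were AgPURE, and no group received their surfactant alone, so silver and surfactant, which rise together between the doses, cannot be told apart. Whether the 3 arrays of 1 dose stand for separate cultures is not in the labels, and the p-values then measure only array-to-array spread, which may be technical.

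Silver that dissolves from particles binds thiol groups, and cells answer thiol-binding metals through several transcription systems. MTF1 senses zinc set free from proteins and switches on the metallothioneins, small cysteine-rich proteins that bind zinc, copper, cadmium and silver. HSF1 is released when unfolded proteins draw chaperones away and switches on heat shock genes, and NRF2 escapes KEAP1 when its cysteines are modified and switches on genes of glutathione, thioredoxin and haem breakdown. In Caco-2 cells these systems act beside an absorptive programme of brush border, lipoprotein and liver-type secreted proteins.

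All values are log2 expression values, so that a difference of 1 is a 2-fold change. Over all probe sets (no independent replicates) the arrays correlated with r of 0.994 to 0.995 within the 25 µg/mL group and 0.994 to 0.996 within the 2.5 µg/mL group, against 0.978 to 0.981 between the groups. Control probe sets were higher at 25 µg/mL, by 0.75 for the 24 poly-A probe sets, 0.34 for the 18 hybridization probe sets and 0.75 for the 6 ribosomal RNA probe sets (exact permutation test, two-sided p = 0.1 for each, the smallest possible with 3 arrays a group). Mean poly-A values were 6.21, 5.56 and 6.31 at 25 µg/mL, against 5.29, 5.23 and 5.32 at 2.5 µg/mL, so replicate 2 at 25 µg/mL lay nearest to the lower dose. Scaling the arrays on these controls moved the median of all genes to -0.75 (poly-A) or -0.34 (hybridization), against 0.00 as deposited. Directions in the following paragraphs are relative to the deposited normalization, and medians under both scalings stand beside the main lists that rose. The 3′ minus 5′ probe set value of ACTB, which grows as RNA is broken down, was 0.56 ± 0.14 at 25 µg/mL and 0.72 ± 0.21 at 2.5 µg/mL (SD, n = 3 each, exact permutation test, two-sided p = 0.5), and that of GAPDH was 0.19 ± 0.05 at 25 µg/mL, against 0.15 ± 0.04 at 2.5 µg/mL (SD, n = 3 each, exact permutation test, two-sided p = 0.3).

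**Figure D1:**
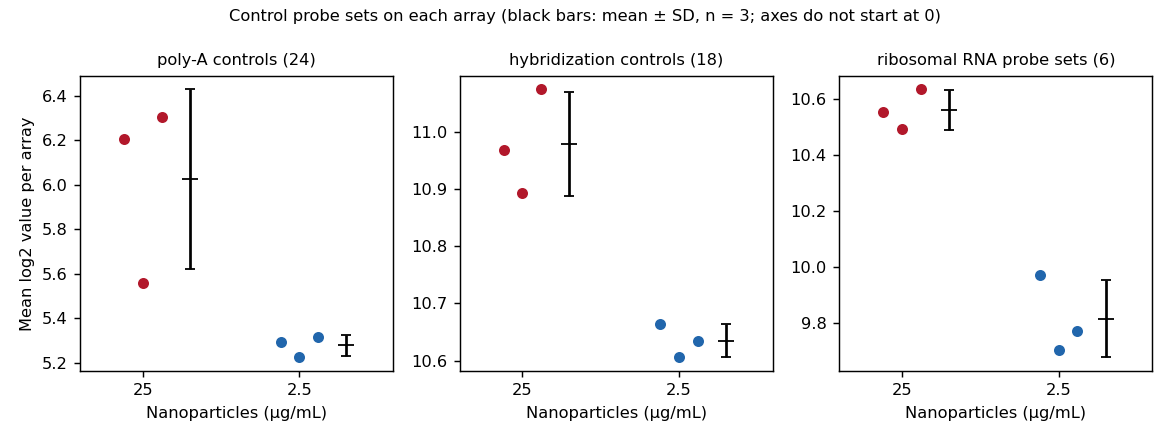
Mean log2 value of the poly-A, hybridization and ribosomal RNA control probe sets on each of the 6 arrays, with the mean and SD of each group (n = 3). All 3 arrays at 25 µg/mL lie above all 3 at 2.5 µg/mL in each panel, and the poly-A value of 5.56 stands apart from the other two at 25 µg/mL.

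Metallothionein, heat shock and NRF2-dependent genes were among the largest rises at 25 µg/mL over 2.5 µg/mL, as were NPPB, a peptide hormone, and RGS2, of no list. Genes of interferon response, lipoproteins and liver-type secretion were among the largest falls. Most of the 15 largest falls lay outside these 3 groups, among them EPB41L3, the largest, ASPA and APELA. By limma, which moderates each gene's variance across genes, 6671 of 19775 genes (33.7%) passed an adjusted p of 0.05, 2679 higher (13.5%) and 3992 lower (20.2%) at 25 µg/mL. Most of these changes were small, 4013 of them (60.16%) being under 1.5-fold. At least 2-fold changes were called for 229 genes higher (1.16%) and 504 lower (2.55%), and in all of them the 3 values at 25 µg/mL lay outside the range of the 3 values at 2.5 µg/mL, as they did in 8963 genes (45.3%) of any change. The largest changes ran the other way, with 17 called genes at least 8-fold higher against 2 at least 8-fold lower. Scaling on the poly-A controls left 126 genes higher and 15885 lower, and scaling on the hybridization controls 761 higher and 12078 lower, so the split between the directions depends on the scaling. Each scaling shifted all genes of an array by the same amount, so all genes shared the error of that shift. Counts and p-values under the scalings treat this error as independent between genes and are given here and below as descriptions. Errors with fold changes are standard errors from limma, and adjusted p-values are limma's with Benjamini-Hochberg adjustment over all genes.

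**Figure D2:**
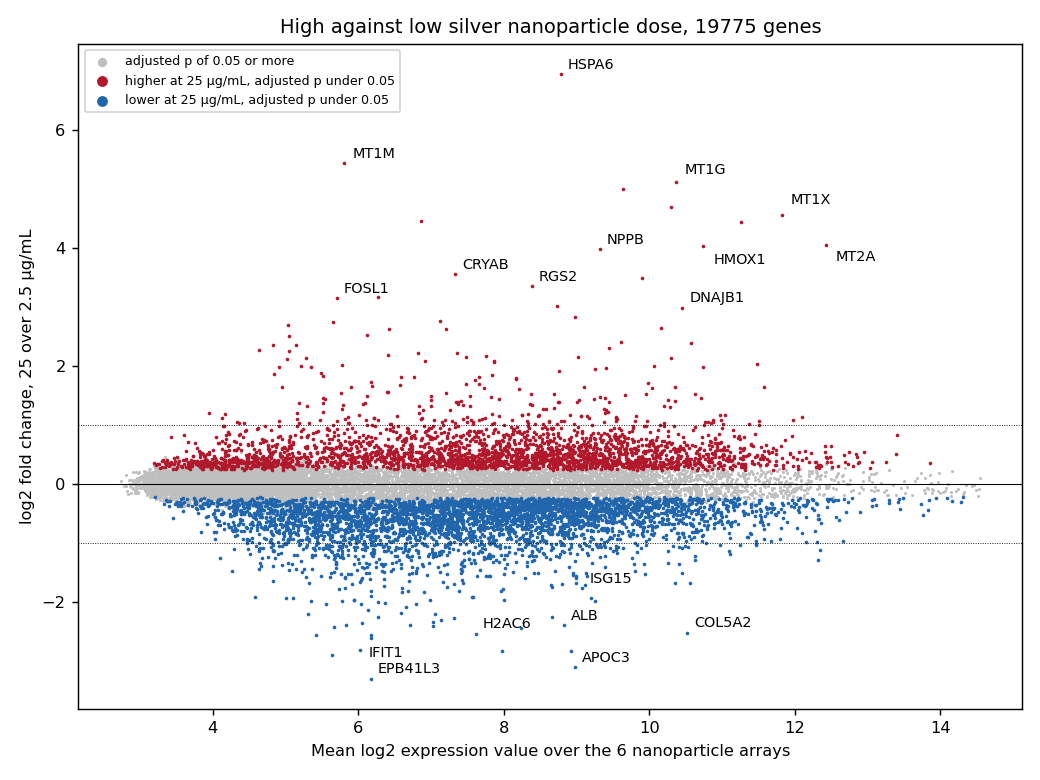
Each point is 1 of 19775 genes, with its mean log2 value over the 6 arrays on the horizontal axis and its log2 fold change, 25 over 2.5 µg/mL, on the vertical axis. Red and blue points passed an adjusted p of 0.05 in limma, dotted lines mark 2-fold, and the points beyond a log2 fold change of 4 are all rises, with HSPA6 at 6.95 and MT1M at 5.43.

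Metallothioneins had the highest median change of the 46 gene lists. All 10 measured members were higher at 25 µg/mL, with a median log2 fold change of 4.50, or 3.75 with poly-A control scaling and 4.16 with hybridization control scaling, against 0.00 for all genes. The 3 promoters shown here are those of large risers on chromosome 16 (GRCh38.p14, RefSeq), the 250 bases before the gene start on the plus strand, with matches to the core of the metal response element, to which MTF1 binds, in capitals. The regions are chr16:56682220-56682469 for MT1X, chr16:56669564-56669813 for MT1H and chr16:56608334-56608583 for MT2A.
MT1X: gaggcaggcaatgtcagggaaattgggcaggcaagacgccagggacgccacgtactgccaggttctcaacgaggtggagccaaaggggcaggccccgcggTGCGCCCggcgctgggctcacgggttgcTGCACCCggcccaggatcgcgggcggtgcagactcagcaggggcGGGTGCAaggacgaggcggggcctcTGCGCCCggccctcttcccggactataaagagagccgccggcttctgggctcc
MT1H: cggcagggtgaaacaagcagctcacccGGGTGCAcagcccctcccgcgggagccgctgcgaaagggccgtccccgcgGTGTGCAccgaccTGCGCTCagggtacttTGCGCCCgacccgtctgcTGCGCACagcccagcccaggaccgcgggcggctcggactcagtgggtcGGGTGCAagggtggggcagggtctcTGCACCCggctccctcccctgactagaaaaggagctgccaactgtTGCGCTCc
MT2A: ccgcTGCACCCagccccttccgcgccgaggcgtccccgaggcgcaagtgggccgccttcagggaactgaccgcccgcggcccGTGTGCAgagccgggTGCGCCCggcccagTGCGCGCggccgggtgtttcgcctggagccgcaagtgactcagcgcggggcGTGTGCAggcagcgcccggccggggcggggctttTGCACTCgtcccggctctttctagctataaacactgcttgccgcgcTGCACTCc
The core was searched as TGCACNC or TGCGCNC on both strands, and the windows held 4 matches for MT1X, 8 for MT1H and 7 for MT2A. Of 4 metallothionein genes with a promoter sequence 4 held it, the other being MT4, with 3 matches and a log2 fold change of only 0.44. Such short letters are common, with a match in 29.66% of the 15382 measured genes that had a promoter in the table, in 34.5% of 171 promoters of genes at least 2-fold higher and in 27.79% of 421 promoters of genes at least 2-fold lower.

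MT1X had log2 values of 14.06, 14.12 and 14.10 at 25 µg/mL, against 9.73, 9.10 and 9.79 at 2.5 µg/mL. The values at 25 µg/mL were nearly equal and far above all values at 2.5 µg/mL, where replicate 2 was the lowest. MT1X was thus 23.6-fold higher (log2 fold change 4.56 ± 0.16 SE, adjusted p = 3.45e-08 in limma). MT2A, the most widely expressed metallothionein, had 14.47, 14.46 and 14.44 at 25 µg/mL, against 10.65, 10.07 and 10.50 at 2.5 µg/mL, again with replicate 2 the lowest at 2.5 µg/mL (16.6-fold higher, adjusted p = 2.66e-08 in limma). The highest value of any probe set on the arrays at 25 µg/mL was 14.69 to 14.73, so MT2A and MT1X lay near the top of the scale there, and saturation was not tested. MT1G had 12.91, 12.89 and 12.98 at 25 µg/mL, against 7.82, 7.69 and 7.90 at 2.5 µg/mL and was 34.8-fold higher (adjusted p = 4.05e-10 in limma), with a log2 fold change of 5.12 ± 0.09 SE, or 3.36 with the mean of its probe sets. MT1M had 8.34, 8.61 and 8.60 at 25 µg/mL, against 3.17, 3.05 and 3.03 at 2.5 µg/mL. Its values at 2.5 µg/mL lay below the array medians of about 4.74, with no detection call in the deposited table, so its log2 fold change of 5.43 ± 0.10 SE has no stated background (adjusted p = 4.2e-10 in limma). MT1E (31.9-fold), MT1H (25.7-fold), MT1F (21.8-fold) and MT1HL1 (11.2-fold) were higher by limma at adjusted p-values up to 6.28e-09. The other members were MT3, best known from brain, with a log2 fold change of 0.70, and MT4, of stratified epithelia, with 0.44, and both turned negative with poly-A control scaling (-0.04 and -0.31). Metallothionein genes are close paralogs, several of these probe sets are marked as matching related transcripts, and the signal of single members was not separated here.

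Transport of zinc and copper moved in a mixed way, 5 higher and 15 lower of 32 measured genes, with a median of -0.20. The shares were 15.6% and 46.9%, against 13.5% and 20.2% of all genes. SLC30A1, the zinc exporter of the plasma membrane and a target of MTF1, had 11.42, 11.38 and 11.29 at 25 µg/mL, against 10.31, 10.12 and 10.57 at 2.5 µg/mL. All 3 values at 25 µg/mL were above all 3 at 2.5 µg/mL, and the gene was 2.04-fold higher (adjusted p = 7.09e-05 in limma). With poly-A control scaling its log2 fold change was 0.28 (adjusted p = 0.298 in limma). As deposited its 3 probe sets ranged from 0.10 to 1.65. SLC30A2, which loads zinc into vesicles, was 4.43-fold higher (log2 fold change 2.15 ± 0.10 SE, adjusted p = 3.5e-07 in limma). SLC30A4, another vesicular zinc transporter, was lower, with a log2 fold change of -0.89 (adjusted p = 8.66e-05 in limma). Of 14 zinc importers 8 were lower and 1 higher, the largest fall being that of SLC39A11 (2.07-fold, adjusted p = 2.08e-05 in limma). SLC31A2, which takes part in copper uptake and storage, was 1.83-fold higher (adjusted p = 6.16e-05 in limma).

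Many chaperone genes were higher. Of 37 measured heat shock genes 26 were higher and 0 lower, and the median was 0.44, or -0.30 with poly-A control scaling and 0.10 with hybridization control scaling, so the sign of the median depends on the scaling. The counts became 7 higher and 9 lower with poly-A control scaling and 13 higher and 5 lower with hybridization control scaling. HSPA6, an HSP70 that is made almost only under stress, had the largest rise of all genes. Its promoter (GRCh38.p14, RefSeq, chr1:161524290-161524539, plus strand) held 1 match to a heat shock element of 3 units, to which HSF1 binds, shown in capitals.
HSPA6: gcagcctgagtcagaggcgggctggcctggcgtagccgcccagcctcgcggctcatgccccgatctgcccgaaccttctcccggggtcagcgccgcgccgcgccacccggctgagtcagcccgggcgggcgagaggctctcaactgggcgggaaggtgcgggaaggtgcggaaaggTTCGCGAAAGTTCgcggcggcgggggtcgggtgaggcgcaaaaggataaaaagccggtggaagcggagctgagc
The element was searched as GAANNTTCNNGAA on both strands and was present in 0.38% of all 15382 promoters, in 4 of 171 promoters (2.34%) of genes at least 2-fold higher and in 0 of 421 promoters of genes at least 2-fold lower. Of 32 heat shock genes with a promoter sequence 3 held it, HSPA6, DNAJB6 and CHORDC1, named after the search. The bases searched just before the starts of HSPA1L, DNAJB1, BAG3 and HSPH1 held no match, and bases further upstream were not searched. HSPA6 had log2 values of 12.33, 12.19 and 12.23 at 25 µg/mL, against 5.77, 4.97 and 5.18 at 2.5 µg/mL. Replicate 1 was the highest of the values at 2.5 µg/mL, and the gene was 123-fold higher at 25 µg/mL (log2 fold change 6.95 ± 0.17 SE, adjusted p = 2.8e-09 in limma). HSPA1L, another HSP70, had 9.09, 9.10 and 9.06 at 25 µg/mL, against 4.74, 4.58 and 4.55 at 2.5 µg/mL (22-fold higher, adjusted p = 4.74e-10 in limma). Both are close in sequence to HSPA1A and HSPA1B, the main inducible HSP70 genes, which have no value under the rule of exactly 1 gene symbol. Cross-hybridization between these genes was not tested.

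DNAJB1, the HSP40 partner of HSP70, had log2 values of 12.01, 11.93 and 11.89 at 25 µg/mL, against 8.94, 8.93 and 8.999 at 2.5 µg/mL. The groups were tight and far apart, and DNAJB1 was 7.92-fold higher (adjusted p = 6.09e-09 in limma). CRYAB, a small heat shock protein that keeps unfolded proteins soluble, had 9.03, 9.13 and 9.16 at 25 µg/mL, against 5.85, 5.39 and 5.42 at 2.5 µg/mL (11.7-fold higher, adjusted p = 3.45e-08 in limma). BAG3, which links HSP70 to selective autophagy, was 3.93-fold higher (adjusted p = 3.02e-07 in limma). All 7 measured HSP90 and co-chaperone genes were higher, by log2 fold changes of 0.37 to 1.12, and so were 6 of 9 J-domain genes. Of these HSP90 and co-chaperone genes 0 passed as higher with poly-A control scaling (median -0.29) and 3 with hybridization control scaling, and the J-domain genes then gave 2 higher and 3 lower with poly-A control scaling and 4 higher and 2 lower with hybridization control scaling. The 2 measured mitochondrial chaperonin genes and the 2 measured heat shock factor genes did not pass the test.

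Genes of the proteasome, which degrades ubiquitin-tagged proteins, differed by particle, without a test of that difference. Of 14 measured genes of the 19S regulatory particle 10 were higher and 0 lower (median 0.39, or -0.35 with poly-A control scaling and 0.05 with hybridization control scaling). Of 13 genes of the 20S core 3 were higher and 0 lower, whereas of 4 immunoproteasome genes 0 were higher and 3 lower (median -0.99). PSMD12, a 19S lid subunit, had 11.30, 11.36 and 11.33 at 25 µg/mL, against 10.33, 10.30 and 10.22 at 2.5 µg/mL (2.06-fold higher, adjusted p = 7.96e-06 in limma). PSMB9, an interferon-induced catalytic subunit, had 4.15, 4.26 and 4.23 at 25 µg/mL, against 5.29, 5.61 and 5.54 at 2.5 µg/mL, the values at 25 µg/mL lying below the array medians (2.4-fold lower, adjusted p = 9.44e-06 in limma). PSMB8 and PSME1, also interferon-induced, were 2.06-fold and 1.92-fold lower. ZFAND2A, an arsenite-inducible protein that binds the proteasome, was 5.21-fold higher (adjusted p = 6.79e-07 in limma).

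Genes controlled by NRF2 were mostly higher, 28 higher and 4 lower of 46 measured, with a median of 0.45, or -0.29 with poly-A control scaling and 0.11 with hybridization control scaling. HMOX1, haem oxygenase 1, which splits haem into biliverdin, iron and carbon monoxide, had log2 values of 12.79, 12.78 and 12.70 at 25 µg/mL, against 8.46, 8.84 and 8.86 at 2.5 µg/mL. The groups were far apart beside the spread within each, and HMOX1 was 16.4-fold higher (log2 fold change 4.04 ± 0.11 SE, adjusted p = 6.28e-09 in limma). SRXN1, sulfiredoxin, which repairs overoxidized peroxiredoxins, had 11.61, 11.36 and 11.45 at 25 µg/mL, against 8.87, 8.67 and 8.96 at 2.5 µg/mL (6.22-fold higher, adjusted p = 8.65e-08 in limma). GCLM, the modifier subunit of glutamate-cysteine ligase, the first enzyme of glutathione synthesis, had 10.83, 10.76 and 10.85 at 25 µg/mL, against 8.45, 8.28 and 8.52 at 2.5 µg/mL (5.27-fold higher, adjusted p = 6.49e-08 in limma). TXNRD1, cytosolic thioredoxin reductase, had 12.51, 12.47 and 12.49 at 25 µg/mL, against 10.46, 10.38 and 10.52 at 2.5 µg/mL and was 4.1-fold higher (adjusted p = 1.06e-07 in limma), whereas its second probe set differed by 0.02 and the mean of its probe sets by 1.03 on the log2 scale. AKR1B10, an aldo-keto reductase of carbonyl compounds, was 8.97-fold higher (adjusted p = 2.64e-07 in limma), and NMRAL2P, a transcribed pseudogene counted among NRF2 targets, was 5.11-fold higher. The core of the antioxidant response element, searched as TGACNNNGC or TGAGNNNGC on both strands, was in 35.09% of 171 promoters of genes at least 2-fold higher, in 24.94% of 421 promoters of genes at least 2-fold lower and in 25.97% of all 15382.

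The list of selenoproteins, which carry selenium in their active sites, also held SEPSECS, an enzyme of selenocysteine synthesis. This list gave 4 higher and 6 lower of 24 measured, shares of 16.7% and 25% that lie near the 13.5% and 20.2% of all genes. SELENOP, the secreted carrier of selenium, had 9.61, 9.67 and 9.76 at 25 µg/mL, against 11.16, 11.25 and 11.19 at 2.5 µg/mL (2.87-fold lower, adjusted p = 9.29e-07 in limma). SEPSECS, the enzyme that makes selenocysteine on its tRNA, was 2.1-fold lower, and DIO1, which activates thyroid hormone, was 2.22-fold lower (adjusted p = 7.58e-05 in limma). TXNRD2, mitochondrial thioredoxin reductase, was 2.17-fold higher on its brightest probe set (adjusted p = 3.31e-05 in limma), and the second probe set went the other way by -0.07.

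Immediate early genes, transcription factor genes switched on within minutes of growth or stress signals, were mostly higher at 25 µg/mL after 24 h. Of 26 measured members 20 were higher and 1 lower, with a median of 0.78, or 0.03 with poly-A control scaling and 0.43 with hybridization control scaling. The FOS and JUN genes, which form AP-1, gave 8 higher and 0 lower of 9. FOSL1 had log2 values of 7.34, 7.21 and 7.27 at 25 µg/mL, against 4.14, 3.88 and 4.35 at 2.5 µg/mL, the values at 2.5 µg/mL lying below the array medians (8.87-fold higher, adjusted p = 5.85e-08 in limma). FOS had 8.59, 8.50 and 8.43 at 25 µg/mL, against 5.79, 6.04 and 5.84 at 2.5 µg/mL (6.13-fold higher, adjusted p = 5.14e-08 in limma). NR4A1, an orphan nuclear receptor, was 4.17-fold higher, EGR3, a zinc finger factor, 3.98-fold, and ARC, a synaptic early gene, 4.76-fold, all in limma at adjusted p-values up to 1.04e-05. EGR1 was 3.83-fold higher (adjusted p = 1.19e-06 in limma). Its promoter (GRCh38.p14, RefSeq, chr5:138465229-138465478, plus strand), chosen after its values were seen, is shown for its 2 CArG boxes, the sites of serum response factor, in capitals.
EGR1: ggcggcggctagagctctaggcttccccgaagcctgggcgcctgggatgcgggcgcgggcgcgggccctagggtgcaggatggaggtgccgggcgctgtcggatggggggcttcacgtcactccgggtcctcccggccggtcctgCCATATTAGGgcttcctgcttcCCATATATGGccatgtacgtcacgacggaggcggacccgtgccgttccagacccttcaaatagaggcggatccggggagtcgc
A CArG box was found in 9 of 171 promoters (5.26%) of genes at least 2-fold higher, in 1.66% of 421 promoters of genes at least 2-fold lower and in 1.14% of all 15382. Of 17 immediate early genes with a promoter sequence 2 held it, EGR1 and SRF, named after the search. The bases searched just before the starts of FOS and of the SRF and YAP target ANKRD1 held no match. Bases further upstream were not searched, so a CArG box there would have been missed.

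Most genes listed as ERK feedback genes, which include ETS factors beside genes that damp ERK signalling, were higher too. Of these 16 genes 13 were higher and 1 lower, with a median of 0.82, or 0.08 with poly-A control scaling and 0.48 with hybridization control scaling. DUSP1, a phosphatase of MAP kinases, had 10.78, 10.47 and 10.53 at 25 µg/mL, against 8.27, 8.08 and 8.51 at 2.5 µg/mL (4.94-fold higher, adjusted p = 8.56e-07 in limma). DUSP6, which acts on ERK, was 4.62-fold higher, DUSP2 4.21-fold, DUSP4 3.2-fold and the ETS factor ETV5 3.21-fold. EGF family ligands and receptors were mixed, with 2 higher and 1 lower of 5 ligands and 1 higher and 2 lower of 5 receptors. RGS2, which shortens signalling by Gq-coupled receptors, had 10.07, 10.05 and 10.05 at 25 µg/mL, against 6.79, 6.67 and 6.67 at 2.5 µg/mL (10.2-fold higher, adjusted p = 2.8e-09 in limma).

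Targets of SRF and YAP, which carry actin and adhesion signals to the nucleus, gave 14 higher and 1 lower of 18 (median 0.83, or 0.08 with poly-A control scaling and 0.49 with hybridization control scaling). ANKRD1, a YAP target, had log2 values of 10.26, 10.27 and 10.19 at 25 µg/mL, against 7.21, 7.02 and 7.47 at 2.5 µg/mL (8.03-fold higher, adjusted p = 6.3e-08 in limma). TAGLN, an actin-binding protein of smooth muscle, was 3.99-fold higher (adjusted p = 3.15e-06 in limma). ACTB, cytoplasmic actin and often a reference gene, had 13.54, 13.66 and 13.72 at 25 µg/mL, against 13.10, 13.29 and 13.03 at 2.5 µg/mL, higher by 0.50 (adjusted p = 0.00263 in limma), and its sign turned to -0.25 with poly-A control scaling. MMP1, interstitial collagenase, had 10.03, 10.42 and 10.71 at 25 µg/mL, against 7.31, 7.997 and 7.38 at 2.5 µg/mL (7.09-fold higher, adjusted p = 4.03e-06 in limma), and MMP10, stromelysin 2, was 5.67-fold higher. Integrin and adhesion genes gave 4 higher and 1 lower of 12. COL5A2, a chain of collagen V outside these lists, had 9.15, 9.56 and 9.04 at 25 µg/mL, against 11.65, 11.86 and 11.83 at 2.5 µg/mL (5.77-fold lower, adjusted p = 6.79e-07 in limma).

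Chemokine and NF-κB genes moved less as a group, 11 higher and 3 lower of 33 measured, with a median of 0.13 that turned negative under both control scalings. CXCL8, the neutrophil chemoattractant interleukin 8, had 7.16, 7.002 and 6.91 at 25 µg/mL, against 4.65, 4.08 and 4.103 at 2.5 µg/mL (6.72-fold higher, adjusted p = 7.48e-07 in limma). The values at 2.5 µg/mL were below the array medians. CCL28, a mucosal chemokine, and CXCL16 were 1.72-fold and 1.55-fold lower, and REL, an NF-κB subunit, was 1.44-fold lower (adjusted p = 0.00081 in limma).

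**Figure D3:**
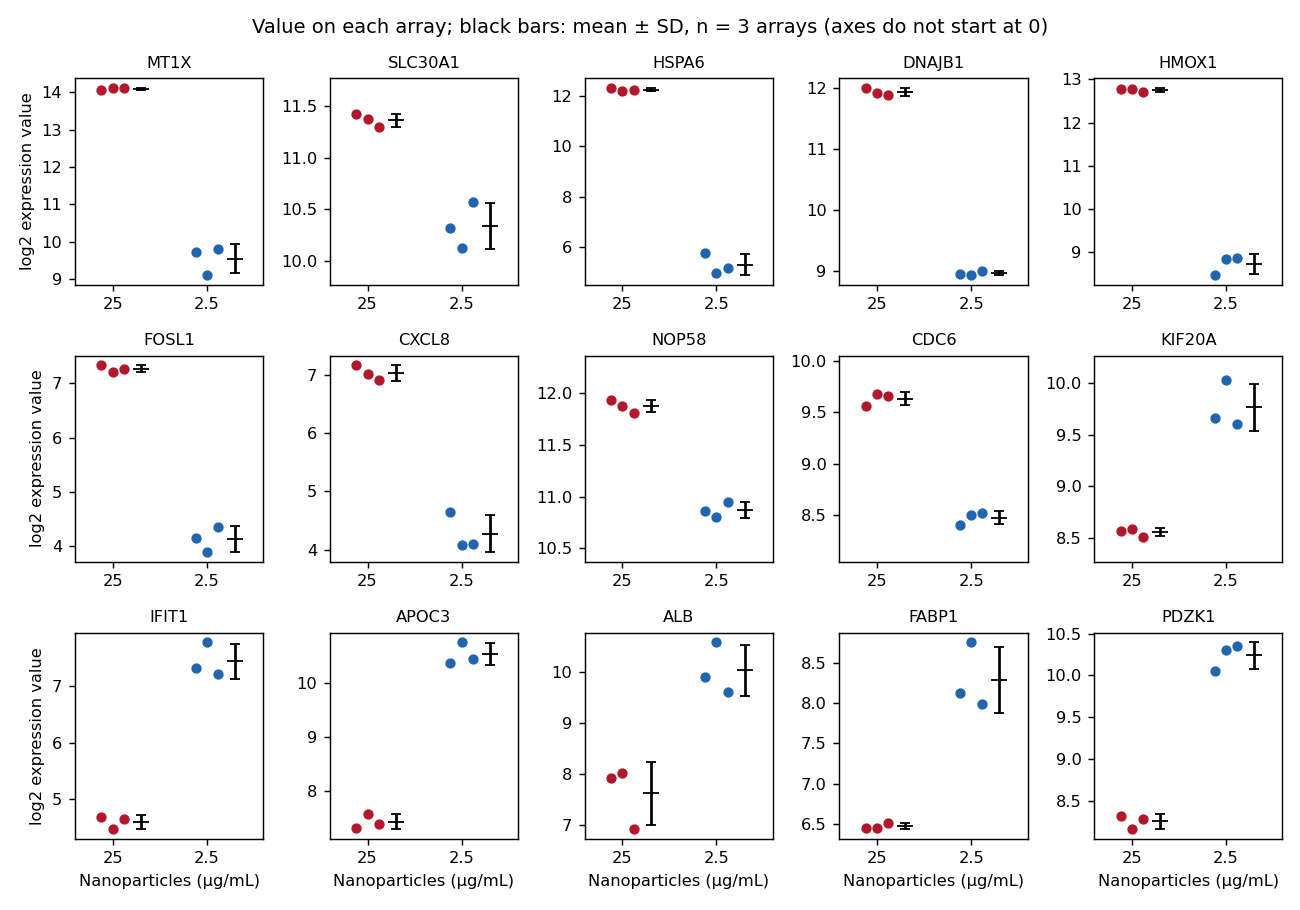
Log2 expression value of 15 genes on each array, red at 25 µg/mL and blue at 2.5 µg/mL, with the mean and SD of each group (n = 3). In every panel the 2 groups do not overlap. The spread is widest for ALB, where replicate 3 at 25 µg/mL (6.92) lies below the other two.

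Interferon-stimulated genes, which block virus growth and are kept at a low level without infection by resting signalling, were mostly lower. Of 39 measured genes 0 were higher and 27 lower (median -0.66, or -1.40 with poly-A control scaling and -1.0 with hybridization control scaling). The promoters of IFIT1 (chr10:89392373-89392622), IFIT3 (chr10:89327747-89327996) and ISG15 (chr1:1013247-1013496), all on the plus strand of GRCh38.p14 from RefSeq, are shown for their matches to the interferon-stimulated response element, the site of the STAT and IRF9 complex, in capitals.
IFIT1: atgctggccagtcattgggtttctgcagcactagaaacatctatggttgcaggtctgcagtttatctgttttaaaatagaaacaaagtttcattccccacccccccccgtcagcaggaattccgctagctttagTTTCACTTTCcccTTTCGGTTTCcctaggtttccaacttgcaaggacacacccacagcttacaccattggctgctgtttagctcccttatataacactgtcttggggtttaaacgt
IFIT3: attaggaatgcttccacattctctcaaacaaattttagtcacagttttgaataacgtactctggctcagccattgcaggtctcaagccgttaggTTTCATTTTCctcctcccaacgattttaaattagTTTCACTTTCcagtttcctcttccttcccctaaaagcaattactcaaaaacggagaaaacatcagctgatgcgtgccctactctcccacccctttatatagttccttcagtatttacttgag
ISG15: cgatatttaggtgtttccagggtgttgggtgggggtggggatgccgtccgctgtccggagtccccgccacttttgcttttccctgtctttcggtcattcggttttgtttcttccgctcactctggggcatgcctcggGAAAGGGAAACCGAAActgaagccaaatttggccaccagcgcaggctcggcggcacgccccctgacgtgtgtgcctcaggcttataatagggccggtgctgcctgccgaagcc
The element was searched as GAAANNGAAA on both strands, a choice made after seeing the data, and each window held 2 matches, which overlap in ISG15. Of 31 interferon-stimulated genes with a promoter sequence 18 held it, and the bases searched just before the start of OAS1 held no match. It was in 4.28% of 421 promoters of genes at least 2-fold lower, in 3.51% of 171 promoters of genes at least 2-fold higher and in 2.48% of all 15382.

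IFIT1, which binds viral RNA that lacks host cap methylation, had log2 values of 4.70, 4.47 and 4.65 at 25 µg/mL, against 7.31, 7.77 and 7.20 at 2.5 µg/mL. The values at 25 µg/mL lay just below the array medians, and IFIT1 was 7.06-fold lower (log2 fold change -2.82 ± 0.14 SE, adjusted p = 5.01e-07 in limma). IFIT2 had 4.82, 4.67 and 4.83 at 25 µg/mL, against 6.68, 6.42 and 7.21 at 2.5 µg/mL (3.99-fold lower, adjusted p = 1.25e-05 in limma), and IFIT3 was 3.39-fold lower. ISG15, a ubiquitin-like modifier, had 7.86, 8.26 and 8.45 at 25 µg/mL, against 9.82, 9.95 and 10.13 at 2.5 µg/mL (3.42-fold lower, adjusted p = 1.01e-05 in limma). OAS1, which makes the signal for RNase L, was 2.73-fold lower. Of 9 sensors and regulators 8 were lower. The other 12 members did not pass the test, among them MX1 (-0.15) and MX2 (-0.20), antiviral GTPases, both named after their values were seen.

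Most ribosome assembly genes were higher as deposited and a part of the ribosomal protein genes lower, a contrast that was not tested as such. Of 44 genes of ribosome biogenesis, which make and trim ribosomal RNA in the nucleolus, 36 were higher and 1 lower (median 0.68, or -0.07 with poly-A control scaling and 0.34 with hybridization control scaling). The counts became 0 higher and 8 lower with poly-A control scaling and 26 higher and 4 lower with hybridization control scaling. NOP58, a core protein of box C/D small nucleolar particles, had 11.94, 11.88 and 11.81 at 25 µg/mL, against 10.86, 10.80 and 10.95 at 2.5 µg/mL (2.01-fold higher, adjusted p = 1.38e-05 in limma). UTP14A, of the small subunit processome, had 9.07, 9.04 and 9.01 at 25 µg/mL, against 7.88, 7.91 and 7.87 at 2.5 µg/mL (2.23-fold higher, adjusted p = 3.29e-06 in limma), and MRTO4, which assembles the large subunit, was 2.22-fold higher. Cytoplasmic ribosomal protein genes gave 3 higher and 22 lower of 60 measured (median -0.17). RPL36 had 12.002, 11.95 and 12.11 at 25 µg/mL, against 12.64, 12.56 and 12.64 at 2.5 µg/mL (1.51-fold lower, adjusted p = 0.000341 in limma). Mitochondrial ribosomal protein genes were mixed, 17 higher and 10 lower of 75, with MRPL41 1.62-fold lower. Their shares were 22.7% and 13.3%, against 13.5% and 20.2% of all genes. The counts of this list became 0 higher and 50 lower with poly-A control scaling and 2 higher and 35 lower with hybridization control scaling. Aminoacyl-tRNA synthetase genes gave 11 higher and 5 lower of 32, with AARS1, alanyl-tRNA synthetase, 1.63-fold lower (adjusted p = 0.000303 in limma). The synthetase counts became 0 higher and 21 lower with poly-A control scaling and 1 higher and 17 lower with hybridization control scaling. Splicing genes gave 10 higher and 3 lower of 28, with SRSF3 1.76-fold and SRSF7 1.75-fold higher and the kinase gene CLK4 1.61-fold lower. The counts became 0 higher and 17 lower with poly-A control scaling and 4 higher and 15 lower with hybridization control scaling, and with poly-A control scaling SRSF3 (0.07) and SRSF7 (0.06) no longer passed the test in limma, at adjusted p-values of 0.801 and 0.826.

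Cell cycle genes differed by phase, without a test of that difference. Genes of the G1 to S step and of replication gave 21 higher and 2 lower of 32 (median 0.51, or -0.24 with poly-A control scaling and 0.16 with hybridization control scaling), whereas those of G2 and mitosis gave 1 higher and 17 lower of 30 (median -0.40). CDC6, which loads the replicative helicase, had 9.56, 9.68 and 9.66 at 25 µg/mL, against 8.41, 8.51 and 8.52 at 2.5 µg/mL (2.22-fold higher, adjusted p = 5.08e-06 in limma). MCM10, which starts the helicase, was 2.62-fold higher, and CCNE2, a cyclin of S phase entry, 2.14-fold. KIF20A, a kinesin of cytokinesis, had 8.56, 8.59 and 8.51 at 25 µg/mL, against 9.66, 10.02 and 9.60 at 2.5 µg/mL (2.31-fold lower, adjusted p = 2.54e-05 in limma). PTTG1, securin, was 1.96-fold lower and NUSAP1, a spindle protein, 1.78-fold. Histone genes gave 3 higher and 16 lower of 52 (median -0.10), shares of 5.77% and 30.8% against 13.5% and 20.2% of all genes. H2AC6 had 6.04, 6.36 and 6.62 at 25 µg/mL, against 8.92, 8.80 and 8.93 at 2.5 µg/mL (5.83-fold lower, adjusted p = 6.79e-07 in limma), and H1-2 and H2BC21 were 3.21-fold and 2.83-fold lower. Transcripts of these histone genes are also found with a poly-A tail, which the labelling needs.

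**Figure D4:**
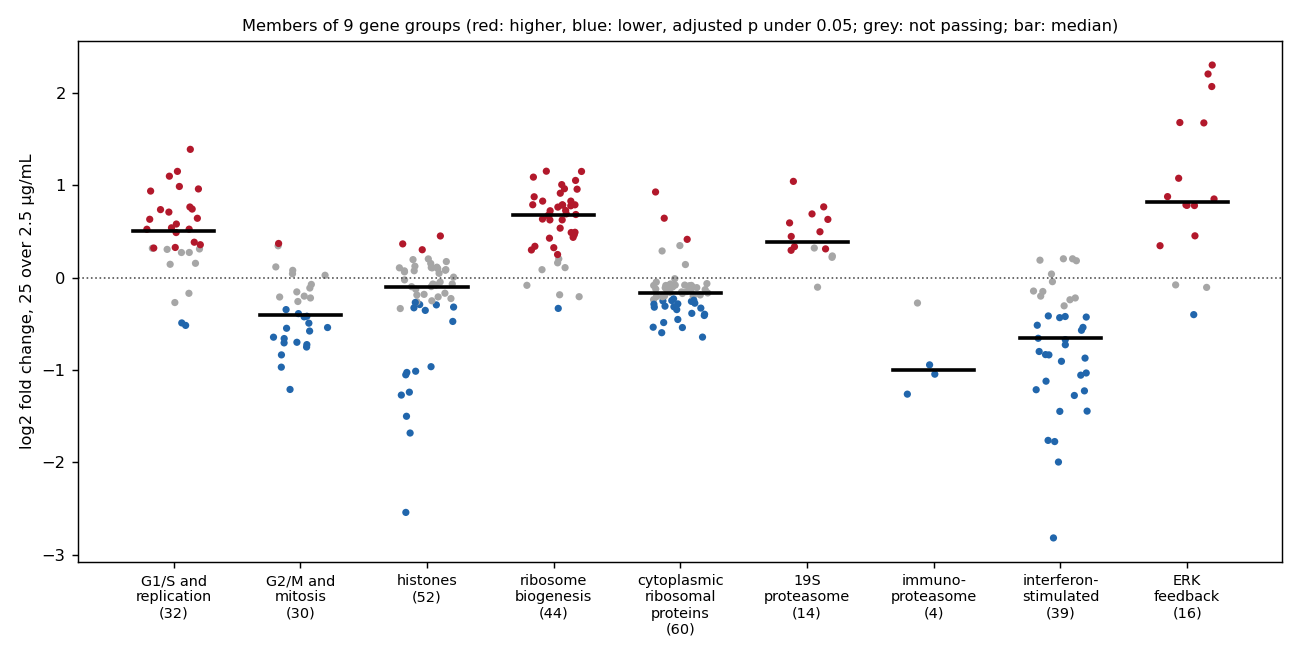
Log2 fold change, 25 over 2.5 µg/mL, of every measured member of 9 gene groups, with the number of members in parentheses, the group median as a bar and the median of all genes as a dotted line. Red and blue members passed an adjusted p of 0.05 in limma. Members of G1/S, ribosome biogenesis, 19S proteasome and ERK feedback groups lie mostly above 0, and those of G2/M, immunoproteasome and interferon-stimulated groups mostly below, as deposited. With poly-A control scaling the medians of the first 3 of these turned negative and that of ERK feedback was 0.08.

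Damage and death genes moved in both directions. Targets of p53 and GADD45 genes gave 9 higher and 4 lower of 20. The counts of this list became 2 higher and 10 lower with poly-A control scaling and 8 higher and 8 lower with hybridization control scaling. PLK2, a stress-induced kinase, had 8.49, 8.53 and 8.51 at 25 µg/mL, against 5.70, 5.65 and 5.88 at 2.5 µg/mL (6.78-fold higher, adjusted p = 2.41e-08 in limma). GADD45B, a growth arrest gene, was 4.45-fold higher and CDKN1A, the cyclin kinase inhibitor p21, 2.09-fold, whereas DDB2, a repair factor and p53 target, was 1.97-fold lower (adjusted p = 0.000124 in limma). The BCL2 family gave 3 higher and 4 lower of 15, shares of 20% and 26.7% against 13.5% and 20.2% of all genes. Of 10 pro-death BCL2 family genes 3 were higher and 3 lower. BCL2L11, BIM, was 2.11-fold lower and BMF 1.85-fold lower, and PMAIP1, NOXA, was 1.91-fold higher (adjusted p = 0.00175 in limma).

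The ATF4 list, for amino acid shortage and the integrated stress response, gave 7 higher and 8 lower of 27. Its shares were 25.9% and 29.6%, against 13.5% and 20.2% of all genes. PPP1R15A, which restarts translation, was 2.86-fold higher, with 9.51, 9.42 and 9.42 at 25 µg/mL, against 7.96, 7.43 and 8.41 at 2.5 µg/mL, where the values at 2.5 µg/mL were widely spread (adjusted p = 0.000164 in limma). SLC7A5, the large neutral amino acid transporter, was 2.75-fold higher (adjusted p = 1.34e-06 in limma), and NUPR1, a stress-induced nuclear protein, was 1.66-fold lower. Chaperones of the endoplasmic reticulum and unfolded protein response genes gave 3 higher and 6 lower of 29 (10.3% and 20.7%), near the 13.5% and 20.2% of all genes. CRELD2 was 2.08-fold higher, and SEL1L, of the ER degradation complex, was 1.69-fold lower (adjusted p = 0.000129 in limma).

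Genes of lipid export and storage that passed the test were mostly lower. Apolipoprotein and lipoprotein assembly genes gave 0 higher and 7 lower of 22 (median -0.24), shares of 0% and 31.8% against 13.5% and 20.2% of all genes. APOC3, which slows clearance of triglyceride-rich lipoproteins, had log2 values of 7.30, 7.57 and 7.39 at 25 µg/mL, against 10.38, 10.76 and 10.45 at 2.5 µg/mL (8.64-fold lower, log2 fold change -3.11 ± 0.12 SE, adjusted p = 6.3e-08 in limma), and the mean of its probe sets gave -1.82. APOB, the structural protein of chylomicrons, had 10.04, 10.09 and 10.0 at 25 µg/mL, against 10.96, 11.12 and 10.53 at 2.5 µg/mL (1.78-fold lower, adjusted p = 0.000787 in limma), and ABCA1, which loads cholesterol onto apolipoprotein A-I, was 2.67-fold lower. Genes of triglyceride synthesis gave 1 higher and 7 lower of 10. DGAT2, which makes triglyceride, had 8.20, 8.16 and 8.19 at 25 µg/mL, against 9.57, 9.67 and 9.57 at 2.5 µg/mL (2.68-fold lower, adjusted p = 1.17e-06 in limma), and DGAT1 and MOGAT3 were 2.33-fold and 2.55-fold lower. GPAT3, at the first step of glycerolipid synthesis, was 2.55-fold higher. FABP1, the liver-type fatty acid binding protein, had 6.44, 6.45 and 6.51 at 25 µg/mL, against 8.13, 8.76 and 7.99 at 2.5 µg/mL (3.54-fold lower, adjusted p = 2.15e-05 in limma), with replicate 2 the highest at 2.5 µg/mL.

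Cholesterol synthesis and SREBP genes gave 1 higher and 18 lower of 24 (median -0.56), all 11 called synthesis genes being lower. MSMO1, a sterol methyl oxidase, had 10.87, 10.86 and 10.91 at 25 µg/mL, against 11.74, 11.66 and 11.97 at 2.5 µg/mL (1.88-fold lower, adjusted p = 5.58e-05 in limma), and SQLE, squalene epoxidase, was 1.72-fold lower. Fatty acid oxidation and PPAR target genes gave 0 higher and 17 lower of 30 (median -0.37), with CPT2, of fatty acid entry into mitochondria, 1.82-fold lower and the receptor gene PPARA 1.76-fold lower. Fatty acid synthesis genes gave 1 higher and 3 lower of 12, shares of 8.33% and 25% that lie near the 13.5% and 20.2% of all genes. ACSS2, which makes acetyl-CoA from acetate, was 2.52-fold lower (adjusted p = 2.24e-05 in limma).

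About as many respiratory chain genes were lower, by small amounts, as did not pass the test. Complex I gave 1 higher and 13 lower of 33 (median -0.26) and complexes II to V 0 higher and 20 lower of 35 (median -0.27). All 10 measured genes of complex IV, cytochrome c oxidase, were lower, by log2 fold changes of -0.24 to -0.61. NDUFA7, a complex I subunit, had 7.83, 7.91 and 7.79 at 25 µg/mL, against 8.84, 8.94 and 8.71 at 2.5 µg/mL (1.98-fold lower, adjusted p = 2.38e-05 in limma), and COX8A, a complex IV subunit, was 1.48-fold lower. Glycolysis genes gave 8 higher and 3 lower of 18 (44.4% and 16.7%, against 13.5% and 20.2% of all genes). The glycolysis counts became 0 higher and 9 lower with poly-A control scaling and 5 higher and 8 lower with hybridization control scaling. PFKP, platelet phosphofructokinase, had 11.51, 11.66 and 11.49 at 25 µg/mL, against 10.43, 10.45 and 10.28 at 2.5 µg/mL (2.25-fold higher, adjusted p = 7.67e-06 in limma), PFKFB3, which makes its activator, was 2.23-fold higher, and HK2, hexokinase 2, 1.85-fold. ADM, the hypoxia-induced peptide adrenomedullin, was 2.68-fold higher, but of 15 genes of hypoxia response and gluconeogenesis 2 were higher and 6 lower.

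Caco-2 cells make many proteins that the liver secretes into plasma, and many of these were lower, 0 higher and 23 lower of 39 measured (median -0.50, or -1.24 with poly-A control scaling and -0.84 with hybridization control scaling). ALB, albumin, had log2 values of 7.93, 8.03 and 6.92 at 25 µg/mL, against 9.90, 10.58 and 9.60 at 2.5 µg/mL. The spread was wide in both groups, yet the groups did not overlap (5.28-fold lower, log2 fold change -2.40 ± 0.29 SE, adjusted p = 0.000126 in limma). ORM1, an acute-phase glycoprotein, had 7.64, 7.49 and 7.36 at 25 µg/mL, against 10.28, 10.45 and 10.28 at 2.5 µg/mL (7.17-fold lower, adjusted p = 3.5e-08 in limma). AGT, the precursor of angiotensin, was 5.47-fold lower, KNG1, kininogen, 4.79-fold and SERPINA4, kallistatin, 4.24-fold, all in limma at adjusted p-values up to 9.18e-06. Complement genes gave 0 higher and 6 lower of 21 (0% and 28.6%, against 13.5% and 20.2% of all genes). C5 was 2.34-fold and CFB, factor B, 2.31-fold lower.

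The brush border, the microvillus surface where nutrients are digested and taken up, was lower in part of its genes. Microvillus scaffold genes gave 0 higher and 9 lower of 12 (median -0.55), against 2 higher and 4 lower of 16 enzymes and 4 higher and 7 lower of 17 transporters. The shares of the enzymes, 12.5% and 25%, lie near the 13.5% and 20.2% of all genes. The differences between these subgroups were not tested. PDZK1, a scaffold for apical transporters, had 8.32, 8.16 and 8.28 at 25 µg/mL, against 10.06, 10.30 and 10.36 at 2.5 µg/mL (3.96-fold lower, adjusted p = 6.02e-07 in limma). USH1C, harmonin, which ties microvilli together, was 1.99-fold lower and VIL1, villin, which bundles microvillus actin, 1.32-fold (adjusted p = 0.0114 in limma). SLC2A2, the glucose transporter GLUT2, had 3.99, 3.80 and 4.096 at 25 µg/mL, against 4.90, 5.82 and 5.33 at 2.5 µg/mL, with the values at 25 µg/mL below the array medians (2.62-fold lower, adjusted p = 0.000258 in limma). ALPI, intestinal alkaline phosphatase, was 2.49-fold lower. Of 19 transcription factor genes of enterocytes 6 were lower and 0 higher (31.6% and 0%, against 20.2% and 13.5% of all genes). Among the lower ones were CDX2, the intestinal homeobox factor (-0.46, adjusted p = 0.00893 in limma, or 0.109 with the mean of its probe sets), and ELF3, an epithelial ETS factor (-0.97, adjusted p = 4.5e-05 in limma).

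Tight junction genes gave 0 higher and 8 lower of 14 (median -0.53), and genes of adherens junctions and desmosomes 1 higher and 1 lower of 11. CGN, cingulin, had 9.07, 9.34 and 9.43 at 25 µg/mL, against 10.06, 10.13 and 10.28 at 2.5 µg/mL (1.84-fold lower, adjusted p = 0.000144 in limma), its relative CGNL1 was 2.31-fold lower, and TJP3, ZO-3, and CLDN3, a sealing claudin, were 1.75-fold and 1.59-fold lower. EPB41L3, a protein 4.1 relative that ties membrane proteins to the cytoskeleton, had 4.71, 4.42 and 4.41 at 25 µg/mL, against 7.45, 8.01 and 7.995 at 2.5 µg/mL, the values at 25 µg/mL lying below the array medians (9.89-fold lower as measured, adjusted p = 2.9e-07 in limma). CEACAM6, an adhesion glycoprotein of colon carcinoma, had 10.68, 10.64 and 10.60 at 25 µg/mL, against 9.67, 9.63 and 9.63 at 2.5 µg/mL (1.99-fold higher, adjusted p = 9.84e-06 in limma).

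Xenobiotic metabolism was mixed, 8 higher and 12 lower of 38 (21.1% and 31.6%, against 13.5% and 20.2% of all genes). CYP1A1, induced through the aryl hydrocarbon receptor, had 11.17, 10.99 and 11.001 at 25 µg/mL, against 9.70, 9.13 and 10.14 at 2.5 µg/mL (2.63-fold higher, adjusted p = 0.000343 in limma). Conjugating enzymes gave 2 higher and 7 lower of 17, with UGT2A3, a glucuronosyltransferase, 4.58-fold lower and GSTA1, a glutathione transferase, 2.11-fold lower. ADH6, an alcohol dehydrogenase, was 6.17-fold lower (adjusted p = 7.37e-08 in limma). The bile acid list gave 1 higher and 3 lower of 12 (8.33% and 25%), near the 13.5% and 20.2% of all genes. Its member KLB, the co-receptor of FGF19, had 5.27, 5.12 and 5.04 at 25 µg/mL, against 7.28, 7.87 and 7.05 at 2.5 µg/mL (4.79-fold lower, adjusted p = 7.55e-06 in limma). Iron and haem genes gave 2 higher and 10 lower of 24 (8.33% and 41.7%, against 13.5% and 20.2% of all genes). ALAD, of haem synthesis, was 2.46-fold lower and SLC40A1, ferroportin, the only known iron exporter, 2.05-fold lower (adjusted p = 1.65e-05 in limma).

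**Figure D5:**
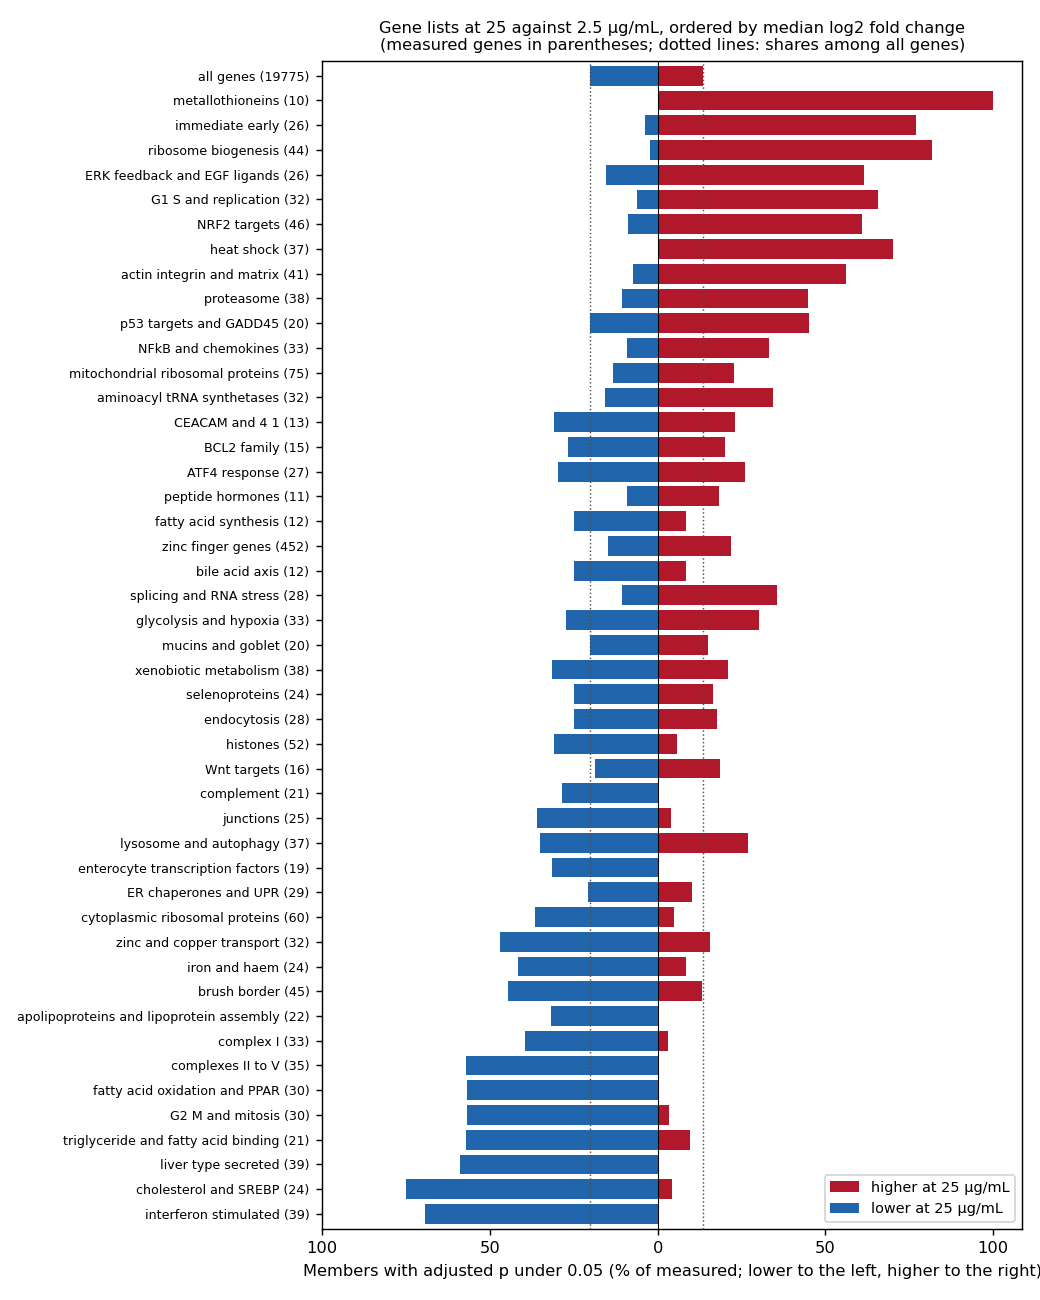
Share of the measured members of each gene list that passed an adjusted p of 0.05 in limma, higher at 25 µg/mL to the right and lower to the left, ordered by the median log2 fold change, with all 19775 genes as the top row and its shares of 13.5% and 20.2% as dotted lines. Metallothioneins stand at the top with all 10 members higher, and interferon-stimulated genes at the bottom with 27 of 39 lower.

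Lysosome and autophagy genes went both ways, 10 higher and 13 lower of 37, shares of 27% and 35.1% against 13.5% and 20.2% of all genes. Genes of endocytosis, a route by which particles can enter cells, gave 5 higher and 7 lower of 28 (17.9% and 25%), near the shares of all genes. GLA, lysosomal alpha-galactosidase, had 10.16, 10.13 and 10.07 at 25 µg/mL, against 8.59, 8.90 and 8.51 at 2.5 µg/mL (2.74-fold higher, adjusted p = 5.61e-06 in limma), and MCOLN1, the lysosomal calcium channel, was 2.12-fold higher. WIPI1, of early autophagosomes, had 6.73, 6.84 and 6.65 at 25 µg/mL, against 8.14, 8.04 and 8.20 at 2.5 µg/mL (2.62-fold lower, adjusted p = 2.26e-06 in limma), and CTSS, cathepsin S, was 2.1-fold lower. CLTB, a clathrin light chain, was 1.91-fold higher, and EEA1 and RAB5B, of early endosomes, were 1.84-fold and 1.92-fold lower.

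Peptide and secreted factor genes held some of the largest single changes in lists that did not move together. NPPB, B-type natriuretic peptide, had 11.15, 11.26 and 11.51 at 25 µg/mL, against 7.49, 7.46 and 7.03 at 2.5 µg/mL (15.8-fold higher, adjusted p = 3.45e-08 in limma), and CCK, cholecystokinin, had 7.51, 7.72 and 7.95 at 25 µg/mL, against 5.05, 4.97 and 5.28 at 2.5 µg/mL (6.18-fold higher, adjusted p = 3.75e-07 in limma). APELA, a ligand of the apelin receptor, had 6.03, 6.88 and 6.76 at 25 µg/mL, against 9.24, 9.69 and 9.27 at 2.5 µg/mL (7.18-fold lower, adjusted p = 4.28e-06 in limma). Of 20 mucin and goblet cell genes 3 were higher and 4 lower, near the shares of all genes. TFF1, a trefoil peptide that protects mucosa, was 3.08-fold higher and REG4, a secreted lectin, 2.48-fold, and MUC13, a membrane mucin, was 1.75-fold lower (adjusted p = 0.0125 in limma, or 0.0527 without replicate 1 at 2.5 µg/mL). Zinc finger genes named ZNF gave 99 higher and 67 lower of 452, with ZNF473, needed for histone mRNA processing, 3.24-fold higher. The ZNF shares were 21.9% and 14.8%, against 13.5% and 20.2% of all genes. The ZNF counts became 6 higher and 323 lower with poly-A control scaling and 23 higher and 250 lower with hybridization control scaling. Targets of Wnt gave 3 higher and 3 lower of 16, near the shares of all genes.

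Further large falls belonged to no list. ASPA, which splits N-acetylaspartate, had 4.21, 4.04 and 4.30 at 25 µg/mL, against 7.06, 7.20 and 7.02 at 2.5 µg/mL (7.52-fold lower, log2 fold change -2.91, adjusted p = 2.87e-08 in limma), the values at 25 µg/mL lying below the array medians. The mean of its probe sets gave -1.79. GABRB1, a subunit of the GABA receptor, and GPC5, a cell surface proteoglycan, were 5.94-fold and 5.93-fold lower, GABRB1 with a log2 fold change of -2.57, or -1.06 with the mean of its probe sets. SLC38A4, a transporter of neutral amino acids, was 5.4-fold lower, TFEC, of the MITF family, 5.3-fold and TMEM150C 5.3-fold, all in limma at adjusted p-values up to 4.89e-06. A TATA box, searched as TATAAA on the gene strand, was in 14.04% of 171 promoters of genes at least 2-fold higher, in 7.13% of 421 promoters of genes at least 2-fold lower and in 5.69% of all 15382.

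The called genes just past the 2-fold line were PER2, YRDC and GPC1, higher with log2 fold changes of 1.001, 1.003 and 1.004, and HDHD3, PLEKHG6 and KLHL24, lower with -1.001, -1.002 and -1.004. Just inside it lay CEACAM6, SRSF1 and MFAP5 among the higher genes and SLCO4C1, TMEM256 and ARL6IP5 among the lower ones, all at a fold that rounds to 2. Of 415 genes called at least 2-fold that had several probe sets, 312 had all of them on the same side of 0. Averaging the probe sets moved the fold by over 1.5 times for 19 of 171 genes given with values, the others besides those already given being ABCA1 (-0.73), ALB (-1.47), CFB (-0.61), CXCL8 (1.95), DUSP1 (1.21), FABP1 (-1.03), HSPA1L (3.09), IFIT2 (-1.14), NR4A1 (1.11), SLC30A2 (1.44), SLC38A4 (-1.46), SRSF1 (0.37), TXNRD2 (0.52) and ZNF473 (0.97), as log2 fold changes of the mean. In 20 of the 171 genes all 3 values of a group lay below the array medians, those of 25 µg/mL in 11 genes, those of 2.5 µg/mL in 10 and both in MX1, so these folds have no stated background. Among the genes named here SLC30A4, TXNRD2, REL, ALB, CDX2, MRPL41, SRSF1, PER2, GPC1, KLHL24 and SLCO4C1 had probe sets of both signs.

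Of 16 measured enterocyte and Caco-2 markers 13 had a mean above the array median in at least 1 group. Among them were VIL1, CDH17, EPCAM and KRT20, and also ALPI, whose 3 values at 25 µg/mL lay below the array medians. At 25 µg/mL 1 of the 16 was higher and 8 lower, against 13.5% higher and 20.2% lower of all genes. The mean of the 16 markers was 8.66, 8.67 and 8.68 at 25 µg/mL, against 8.98, 9.12 and 8.87 at 2.5 µg/mL. Goblet markers gave 1 higher and 1 lower of 6, stem cell markers 1 higher and 1 lower of 5, and 0 of 5 enteroendocrine and 0 of 4 Paneth markers passed the test. Fibroblast markers gave 2 higher and 3 lower of 6, with means of 6.07, 6.16 and 6.06 at 25 µg/mL, against 6.33, 6.43 and 6.22 at 2.5 µg/mL. Leukocyte markers gave 0 higher and 2 lower of 4, with means of 4.62, 4.49 and 4.79 at 25 µg/mL, against 5.06, 5.05 and 4.98 at 2.5 µg/mL, near the array medians. Endothelial markers gave 1 higher and 0 lower of 5, with means of 4.81, 4.74 and 4.66 at 25 µg/mL, against 4.60, 4.43 and 4.41 at 2.5 µg/mL. The means of these 3 lists and of the enterocyte list did not overlap between the doses, and neither did the values of 45.3% of all single genes. The labels name only differentiated Caco-2 cells, so the fibroblast, leukocyte and endothelial lists do not count cells of those types. The part of these markers in the results was not tested. For the enterocyte markers, fewer cells that express them and less RNA per cell cannot be told apart in bulk RNA.

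The dose step can be set beside the comparison of 25 µg/mL with medium, which shares the 25 µg/mL arrays. The difference between them is the difference between 2.5 µg/mL and medium, and in 1 model of all 12 arrays it passed the threshold for 0 of 19775 genes (0%), with 900 genes at an unadjusted p under 0.05 and a lowest adjusted p of 0.3417 in limma. MT1X was higher by 4.56 against 2.5 µg/mL and by 3.37 against medium, and MT2A by 4.05 and 2.95, since both were lower at 2.5 µg/mL than in medium by 1.19 and 1.10, differences that did not pass the test. HSPA6 was higher by 6.95 and 6.93 and HMOX1 by 4.04 and 4.104. IFIT1 was lower at 25 µg/mL in both, with -2.82 against 2.5 µg/mL and -3.09 against medium. With an intensity trend in the variance model 8 genes differed between 2.5 µg/mL and medium, namely MT1X, MT2A, MT1F, MT1G, MT1H, MT1HL1, SELENOW and CEACAM6, named after their values were seen, 6 of them metallothioneins.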

How the data were processed

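Expression was measured in 12 samples of differentiated Caco-2 cells on 3′ expression arrays, 1 array per sample, and per the labels' protocols 250 ng of RNA went into the labelled cRNA. The authors deposited 1 log2 value for each probe set and array. The submitters' processing notes name RMA and Partek, without a version, and how they were set is not given in the sources analysed. RMA usually equalizes array distributions, so a change in total mRNA per cell does not show in the values. No detection calls are given, and the number of arrays limits the precision.

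Of 54675 probe sets 62 were controls, 41091 carried 1 gene symbol, 1801 several and 11721 none. Symbols were updated through gene IDs for 41037 and kept for 54. Where a gene had several 1-symbol probe sets, the one brightest on average over the 12 arrays was taken. No 2 arrays held identical values.

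The 6 nanoparticle arrays were fitted with limma 3.58.1 (R 4.3.3, lmFit and eBayes, two-sided, 4 residual and 6.413 prior degrees of freedom), with Benjamini-Hochberg adjustment over 19775 genes and a threshold of 0.05. The fit was tested on simulated data. Control probe sets were compared by exact permutation tests. Genes named in the text were the top 15 rises and top 15 falls, up to 5 members of each of 46 lists, the 3 called genes nearest to 2-fold on each side, and a fixed set of stress and differentiation genes. Exceptions, chosen after seeing values, are said so in the text, and MT3 and MT4 complete their list. The members, lists and rules were chosen with earlier results of these data known. Promoters are the 250 bases before the gene start in a RefSeq table for GRCh38.p14, which held 15382 of the genes, and motif counts are descriptions without a test. Alternatives were other scalings, filters, probe set rules, variance models and thresholds, and leaving out each array. Tables were made with Python 3.11.15 and pandas 2.3.3, permutation tests with scipy 1.17.1 and figures with matplotlib 3.10.9.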

Additional observations from a re-analysis of the deposited data

Results flagged for a closer look

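Control probe sets outside the gene measurements were higher at 25 µg/mL than at 2.5 µg/mL on all 3 arrays, by 0.75 on the log2 scale for the poly-A controls, 0.34 for the hybridization controls and 0.75 for the ribosomal RNA probe sets. Each difference had an exact permutation two-sided p of 0.1, the smallest that 3 against 3 arrays can give.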

How the results depend on the processing

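The scaling of the arrays moved the counts most. With poly-A control scaling 16011 genes passed, 126 higher and 15885 lower, and at least 2-fold changes numbered 4495, 66 higher and 4429 lower. With hybridization control scaling 12839 genes passed, 761 higher and 12078 lower, and at least 2-fold changes numbered 1579, 117 higher and 1462 lower. In both scalings all genes shared the error of the control values, which these counts do not take into account. Testing every probe set on its own called 12005 of 41091, 5260 higher and 6745 lower, with 1339 at least 2-fold, 501 higher and 838 lower. Averaging all probe sets of each gene gave 331 genes at least 2-fold lower, and an adjusted p under 0.01 gave 1707 genes higher. Leaving out each array in turn left 5595 to 5988 genes, 2152 to 2437 higher and 3440 to 3614 lower, and 716 to 769 at least 2-fold, 220 to 247 higher and 469 to 534 lower. Between 2.5 µg/mL and medium the count was 8 with an intensity trend and 0 with unmoderated and array-weight fits and without each array. Of 171 genes given with values, 161 kept their direction and their side of the threshold under the other alternatives run gene by gene, apart from the control scalings. That count left out the threshold of 0.01, which VIL1 (adjusted p = 0.0114 in limma) did not meet. It also left out the tests of single probe sets, and some of the 171 genes had probe sets of both signs, as listed above. Without dim genes 168 of the 171 had a result. With poly-A control scaling 3 of the 171 genes changed sign, ACTB (-0.25), MT3 (-0.042) and MT4 (-0.31), and 25 no longer passed. Among the 25 were SLC30A1, PSMD12, NOP58, UTP14A, CDC6, CDKN1A and PFKP. The unmoderated fit lost 9 calls. The cause of these changes was not tested. No paired analysis was possible because the labels give the arrays single letters and no replicate number shared between groups. Dim genes have no stated background, so 32 of 229 genes at least 2-fold higher, with a mean at 2.5 µg/mL below the array median, and 65 of 504 lower, with a mean at 25 µg/mL below it, have folds of unknown depth.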
